A study of Mus musculus with 32 samples.

Results

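Colonic and ileal descendants of transferred monocytes were compared 4 days after transfer, the earliest day at which engrafted cells of both segments were sequenced. The comparison holds 7 of the 32 libraries of the series, which were chosen by the segment and day in their titles: 3 from colon and 4 from ileum. Recipients were [CD11c-DTR > WT] bone marrow chimeras of strain C57BL/6J with the transgene Tg[Itgax-DTR/GFP]57Lan, irradiated at 7 to 10 weeks of age. Diphtheria toxin (DTx), given at 18 ng per gram of body weight before the transfer and at 9 ng per gram on alternate days from day 1 to day 9, removed the cells that express the toxin receptor from the Itgax (CD11c) promoter. The graft was Ly6C+ bone marrow monocytes of Cx3cr1 GFP/+ CD45.1 donors, although blood is the organ named in the labels of the graft libraries. The labels give DAPI- CD45+ CD11b+ CD64+ Ly6C- MHCII+ as the sort of the day 4 libraries, and the study describes engrafted cells as sorted by the donor markers CD45.1 and GFP. Both segments have the same kind of recipient, toxin treatment and donor. They differ in the organ, in the transfer experiments that supplied them and in the digestion with collagenase, which took 40 minutes for colon and 20 minutes for ileum. The labels do not say how many animals a library pools, or whether colonic and ileal libraries share animals. The p-values therefore measure a spread between libraries, estimated jointly over the 25 libraries fitted in 7 groups.

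Resident macrophages of the gut lamina propria are replaced throughout life by Ly6C+ blood monocytes, which lose Ly6C, gain MHC class II and become phagocytes that clear dying cells and tolerate the flora. The small intestine and the colon differ in what reaches these cells: the ileum holds Paneth cells, bile acid uptake and lymphocytes drawn by the chemokine CCL25, and the colon a thick mucus layer and a dense microbiota. CCL5 draws T cells and monocytes, CCR9 is the receptor for CCL25, ELK3 is a transcription factor of the ETS family, and FOXD2 is a forkhead transcription factor.

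The dates in the titles place the 7 libraries in 3 transfer experiments. Colon replicates 1 and 3 and ileum replicates 1 and 2 belong to experiment 2, colon replicate 2 to experiment 3, and ileum replicates 3 and 4 to experiment 1. No colonic library of day 4 comes from experiment 1, so the experiment and the segment cannot be told apart for that ileal pair. Reads counted on genes ran from 1951932 to 3493426 in colon and from 591817 (replicate 4) to 2770458 (replicate 3) in ileum. Levels below are normalized reads, which are counts per 10000000 mapped reads, and 3 counts equal 5.38 to 8.89 normalized reads in the colonic and 6.4 to 27.65 in the ileal libraries. Such limits cover counting error only.

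The labelled cell type was checked against its defining markers. Csf1r, the receptor for the growth factor CSF1 on which macrophages depend, was at 475, 996 and 970 normalized reads in colon and at 3417, 4023, 803 and 2728 in ileum. C1qa, a complement subunit made by tissue macrophages, was at 1262, 3323 and 3235 in colon and at 12160, 16069, 3262 and 19437 in ileum. Both were present in every library, and the 3 colonic libraries together with ileum replicate 3 held the least of Csf1r. Mertk, another of the defining macrophage markers, was low in both segments. It was at 16.1, 35.6 and 18.3 in colon and at 39.6, 14.3, 12.8 and 27.6 in ileum, too low to be tested. Fcgr1, which encodes the CD64 of the sort gate, was at 48.4, 154 and 159 in colon and at 578, 571, 177 and 212 in ileum. Cd68 ran from 109 to 382 in colon and from 489 to 949 in ileum, and Adgre1 from 106 to 160 and from 286 to 472. Fcgr1, Cd68 and Adgre1 were not called between the segments. Cx3cr1, also a defining marker, is given below. The 20 markers of intestinal epithelium, a cell type outside the sort gate, summed to 216174, 220610 and 239732 normalized reads in colon, to 38339 and 51781 in ileum replicates 1 and 2, and to 201989 and 186211 in ileum replicates 3 and 4. In the graft they summed to 28126 to 30091, of which Lgals3, also a macrophage gene, alone gave a mean of 28693. The 12 pan-leukocyte genes summed to 2466, 5870 and 4512 in colon, to 19549, 25726, 7175 and 13870 in ileum, and to 116925 to 127725 in the graft. Epithelial transcripts were thus high, and leukocyte transcripts low, in all colonic libraries and in ileum replicate 3, while replicate 4 combined high epithelial with intermediate leukocyte sums. The part of epithelial RNA in the comparisons below was not tested, except by the scaling to leukocyte transcripts that is given beside them.

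**Figure D1:**
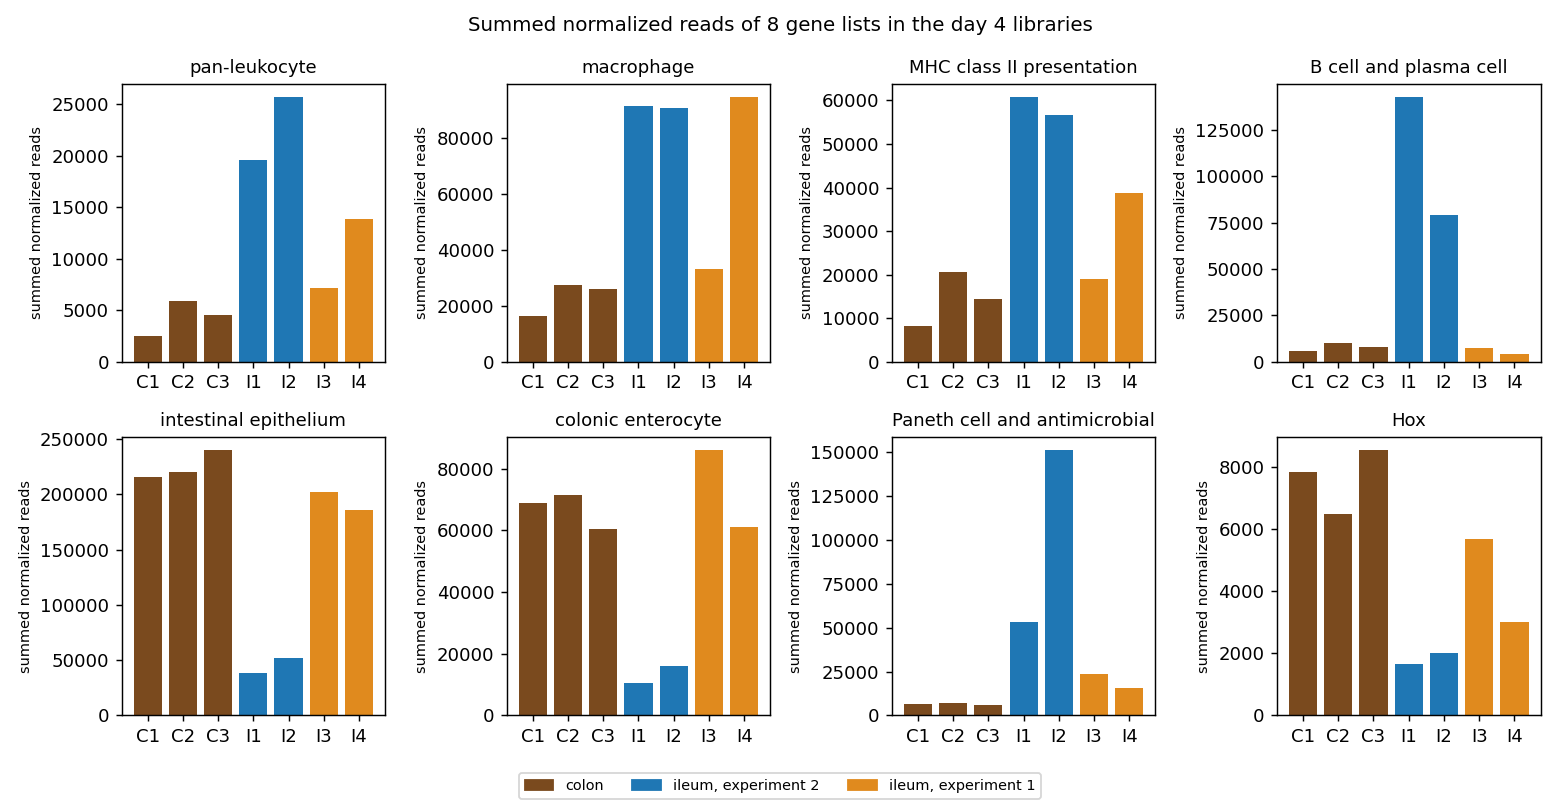
Summed normalized reads of 8 gene lists (bars from 0, 1 panel per list) in each day 4 library, with colonic libraries C1 to C3 in brown, ileal libraries I1 and I2 of experiment 2 in blue and I3 and I4 of experiment 1 in orange. Epithelial sums of I3 (201989) and I4 (186211) lie beside the colonic ones, and those of I1 (38339) and I2 (51781) lie below them.

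The 4 genes by which the segments were marked, Ccl5, Ccr9, Elk3 and Foxd2, are shown with the 250 bases before their start in mm9, since the results turn on them. Capitals mark matches to a short motif, searched on both strands. The starts are those of the deposited table, and the bases were read from the mouse genome NCBIM37 (mm9), 5′ to 3′ on the strand of the gene.
Ccl5 (chr11:83344021-83344270, minus strand): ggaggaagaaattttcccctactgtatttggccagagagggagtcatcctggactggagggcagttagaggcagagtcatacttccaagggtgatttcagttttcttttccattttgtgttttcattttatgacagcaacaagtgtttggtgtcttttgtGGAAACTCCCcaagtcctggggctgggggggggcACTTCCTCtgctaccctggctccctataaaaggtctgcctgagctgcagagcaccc
Ccr9 (chr9:123676079-123676328, plus strand): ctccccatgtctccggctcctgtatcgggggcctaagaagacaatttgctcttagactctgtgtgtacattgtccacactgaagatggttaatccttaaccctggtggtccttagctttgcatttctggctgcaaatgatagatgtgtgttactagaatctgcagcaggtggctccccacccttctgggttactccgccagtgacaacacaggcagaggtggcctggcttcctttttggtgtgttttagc
Elk3 (chr10:92773905-92774154, minus strand): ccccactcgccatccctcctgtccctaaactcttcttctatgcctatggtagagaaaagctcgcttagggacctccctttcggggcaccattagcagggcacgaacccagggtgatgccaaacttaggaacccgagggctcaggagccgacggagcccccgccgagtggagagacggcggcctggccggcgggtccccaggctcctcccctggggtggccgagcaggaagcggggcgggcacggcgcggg
Foxd2 (chr4:114581504-114581753, minus strand): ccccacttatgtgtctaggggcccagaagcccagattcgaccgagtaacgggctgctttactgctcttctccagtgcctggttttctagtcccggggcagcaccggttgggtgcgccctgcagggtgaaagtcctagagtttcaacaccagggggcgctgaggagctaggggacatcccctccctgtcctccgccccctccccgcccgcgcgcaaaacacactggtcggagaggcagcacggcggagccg

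Of the motifs searched, matches were found upstream of Ccl5 alone among the 4 genes. The Ccl5 window was also the only one of the 4 that was not found in the RefSeq promoter sequences of build GRCm38. An NF-kappaB motif (GGGA, any base, TTTCC) lay at bases 90 to 81 before its start and a PU.1 type ETS motif (GAGGAAGT) at bases 56 to 49, both on the opposite strand and without overlap. Of 24340 windows of 250 bases before the genes of the table, 0.37% hold the first motif and 2.33% the second. The ETS motif CCGGAAGT (3.64% of windows), the GATA motif AGATAA (9%), the forkhead motif GTAAACA (2.7%) and the CDX motif TTTATGG (2.25%) had no match in the 4 windows, which says only that these letters are not there.

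Colon differed from ileum on day 4 in 377 of the 11842 genes tested, 62 higher and 315 lower in colon (edgeR quasi-likelihood test, Benjamini-Hochberg adjusted p under 0.05). This is 3.18% of the genes tested, 0.524% higher and 2.66% lower. In 230 of the 377 the 3 colonic and 4 ileal libraries did not overlap, against 8.98% of all genes tested with every colonic library above every ileal one and 5.18% with every colonic library below. The comparison rested on few libraries: no gene was called when colon replicate 1, 2 or 3 or ileum replicate 1 was left out, and 8 when ileum replicate 2 was, whereas 2090 genes were called without ileum replicate 3. With the experiment as a block in the fit, 1265 genes were called, 508 higher and 757 lower in colon. The 377 calls also depend on the spread shared with the graft and the later days. With the day 4 libraries alone in the fit, no gene was called.

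**Figure D2:**
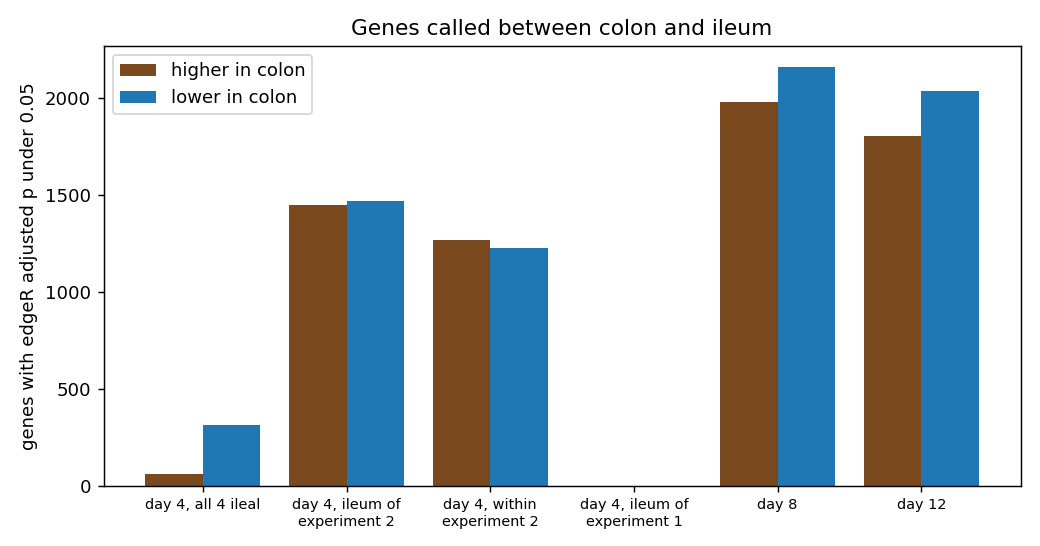
Number of genes called higher and lower in colon for each comparison on day 4 and for days 8 and 12. The bars rise from 377 genes against all 4 ileal libraries to 2918 against those of experiment 2, while 4144 genes were called on day 8 and 3846 on day 12.

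Ileal libraries of experiment 2 alone gave a larger set of differences. Against these, 2918 genes (24.6%) were called, 1450 higher (12.2%) and 1468 lower (12.4%) in colon, and within experiment 2, with 2 colonic and 2 ileal libraries, 2497 (21.1%), with 10.7% of the genes tested higher and 10.4% lower. The split into experiments was made with it known that the other ileal pair resembles colon, so that these counts and the adjusted p-values that go with them describe the libraries. Of the 377 genes, 370 were called with the same direction against the ileal libraries of experiment 2, and 362 within experiment 2. Against the ileal libraries of experiment 1 no gene was called by edgeR (0%), with 1073 genes at an unadjusted p under 0.05, 51 called by DESeq2 and 512 called by edgeR once ileum replicate 3 was left out of the pair.

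Of the 4 markers, Ccl5, Ccr9 and Elk3 were called lower in colon, and Foxd2 was not called. Ccl5 (mm9 chr11:83339281-83344020, minus strand) was at 8.96, 41.5 and 18.3 normalized reads in colon and at 677, 499, 32 and 18.4 in ileum. Its ileal replicates 1 and 2 stood far above all others, and replicates 3 and 4 lay within the colonic range, so the groups overlapped. The colonic mean was 22.9 ± 16.8 (SD, n = 3) and the ileal 307 ± 333 (SD, n = 4), a log2 difference of -3.90 (SE 1.01, adjusted p = 0.0435). Against the ileal libraries of experiment 2 the log2 difference was -4.83 (SE 0.80, adjusted p = 0.000194), and within that experiment -5.55 (adjusted p = 0.000491).

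Ccr9 (chr9:123676329-123692575, plus strand) was at 3.58, 20.8 and 38.6 normalized reads in colon and at 588, 357, 14.9 and 55.3 in ileum. Its pattern was that of Ccl5, with a single ileal pair above the rest. The log2 difference was -3.71 (SE 1.00, adjusted p = 0.0463) against all ileal libraries, -4.58 (adjusted p = 0.000416) against experiment 2 and -4.64 (adjusted p = 0.00232) within it. No read of Ccr9 was counted in the graft, whose libraries have a floor of 3 counts at 5.81 to 8.42 normalized reads, and the day 8 and day 12 means were 8.28 and 9.92 in colon and 244 and 367 in ileum.

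Elk3 (chr10:92710161-92773904, minus strand) was at 66.3, 68.2 and 116 normalized reads in colon and at 512, 421, 81.1 and 147 in ileum, with ileum replicate 3 inside the colonic range. The log2 difference was -1.88 (SE 0.43, adjusted p = 0.0326), and -2.54 (adjusted p = 1.4e-05) against experiment 2. The graft held 553 normalized reads of Elk3, close to the ileal libraries of experiment 2 and several times the colonic level.

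Foxd2 (chr4:114578885-114581503, minus strand) was at 511, 291 and 588 normalized reads in colon and at 33, 49.9, 476 and 544 in ileum. Here ileum replicates 3 and 4 were as high as colon. The log2 difference was 0.62 (SE 0.56, adjusted p = 0.563) against all ileal libraries and 3.47 (adjusted p = 2.17e-05) against those of experiment 2. On days 8 and 12 the colonic means were 463 and 431 and the ileal means 30.2 and 29.1, and the graft stood at 41.6.

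The calls of Ccl5, Ccr9 and Elk3 were each lost when any of the 3 colonic libraries or ileum replicate 1 or 2 was left out, with adjusted p between 0.0818 and 0.187 for Ccl5, 0.11 and 0.225 for Ccr9 and 0.0834 and 0.159 for Elk3. Without ileum replicate 3 the adjusted p-values were 0.00351, 0.00329 and 0.000457. Foxd2 was called in none of the fits that left out a library (adjusted p 0.209 to 0.899).

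**Figure D3:**
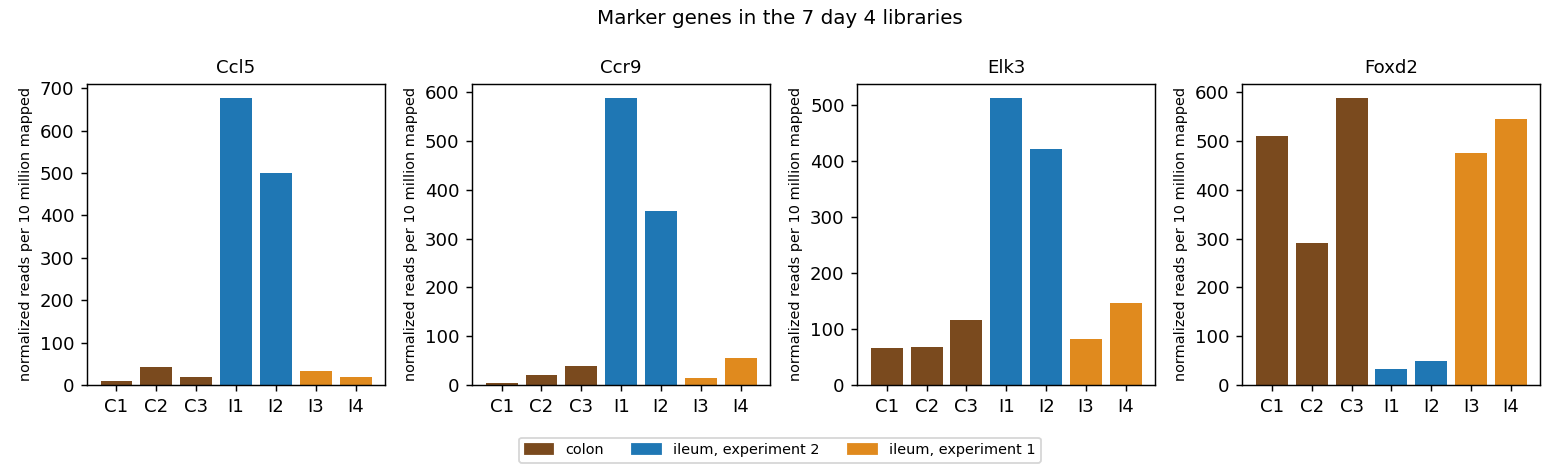
Normalized reads (bars from 0) of Ccl5, Ccr9, Elk3 and Foxd2 in each day 4 library, colonic libraries in brown, ileal libraries of experiment 2 in blue and of experiment 1 in orange. For all 4 genes the orange bars lie at or near the colonic level, as for Foxd2 at 476 and 544 against 291 to 588 in colon, and the blue bars apart from it.

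Among the called genes without overlap of the groups and with a mean of 200 or more normalized reads in the higher group, the 10 largest rises in colon were as follows. B3gnt7, a glycosyltransferase, was at 4753, 3329 and 5568 normalized reads in colon and at 132, 285, 2607 and 507 in ileum (log2 difference 2.26, adjusted p = 0.0451). Tcf7l1, a transcription factor of the Wnt pathway, was at 1319, 1049 and 2536 in colon and at 112, 107, 822 and 184 in ileum (2.26, adjusted p = 0.0389). In both, ileum replicate 3 lay far above the other ileal libraries and still below colon. Rap1gap, which inactivates the GTPase Rap1, was at 436, 293 and 374 in colon and at 46.2, 78.5, 181 and 55.3 in ileum (1.84, SE 0.30, adjusted p = 0.0148). Cela1, an elastase, was at 4520, 4675 and 5130 in colon and at 396, 663, 2500 and 1428 in ileum (1.83, SE 0.40, adjusted p = 0.0303). Fxyd4, a regulator of the sodium pump, had the largest log2 difference of these (2.47, SE 0.66, adjusted p = 0.0461), and Best2, a chloride channel, ran from 351 to 569 in colon and from 9.22 to 224 in ileum (2.21, adjusted p = 0.0389). The others of the 10 were Cyp2f2, Creb3l1, Fgfr3 and Ramp1, with log2 differences of 1.74 to 2.23.

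The 10 largest falls by the same rule (no overlap and a mean of 200 or more normalized reads in the higher group) were as follows. Reg3g, a lectin that kills Gram-positive bacteria, was at 647, 510 and 498 normalized reads in colon and at 8954, 18558, 3226 and 1963 in ileum (log2 difference -3.93, SE 0.94, adjusted p = 0.0373). Reg3b, its close relative, was at 1292, 634 and 557 in colon and at 9126, 24221, 14432 and 3889 in ileum (-4.02, SE 1.02, adjusted p = 0.043). For these lectins every ileal library of both experiments stood above colon, which the rule of no overlap requires of all 10. The 4 markers were not chosen by that rule. Prap1, a secreted protein of the gut epithelium, was at 43, 23.7 and 67.1 in colon and at 1780, 735, 186 and 378 in ileum (-4.20, SE 0.74, adjusted p = 0.0179). Gm14851, of the alpha-defensin cluster, whose near-identical copies make the count uncertain, had the largest fall of these 10 (-5.17, adjusted p = 0.0451). Pla2g7, which degrades platelet-activating factor, was at 143, 237 and 173 in colon and at 2602, 3317, 453 and 1410 in ileum (-3.46, adjusted p = 0.0303). Hk3, a hexokinase of myeloid cells, was at 28.7, 32.6 and 38.6 in colon and at 343, 535, 105 and 249 in ileum (-3.26, adjusted p = 0.0303). Cxcl9, a chemokine induced by interferon-gamma, fell by 3.55 on the log2 scale (adjusted p = 0.0491), and Mptx2, a mucosal pentraxin, by 3.89. Pou2af1 and Cd79b, both genes of B lineage cells, fell by 3.51 and 3.50.

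Some of the genes that define leukocytes and macrophages were called lower in colon and none higher. Of 12 pan-leukocyte genes 5 were called lower and 0 higher, with a median log2 difference of -2.10 beside -0.04 over all genes tested. Of all genes tested, 2.66% were called lower and 0.524% higher, which also stands beside the list counts that follow. Ptprc, which encodes CD45, was at 156, 237 and 205 normalized reads in colon and at 1324, 1683, 529 and 627 in ileum (-2.45, SE 0.62, adjusted p = 0.0424), without overlap. Vav1, a signalling protein of blood cells, Rac2, Laptm5 and Coro1a fell by 2.26, 2.12, 2.23 and 2.20. In bulk libraries, fewer cells of a type and less RNA per cell cannot be told apart.

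Of 21 macrophage genes tested, 3 were called lower and 0 higher (median -1.75). The list summed to 16406, 27348 and 26004 normalized reads in colon and to 91479, 91080, 33196 and 94907 in ileum, where replicate 3 alone stood near colon. Cx3cr1, the fractalkine receptor whose locus carries GFP in the donors, was at 179, 326 and 169 normalized reads in colon and at 1337, 863, 391 and 1346 in ileum (-2.23, SE 0.57, adjusted p = 0.0431). Apoe, a lipid carrier secreted by macrophages, was at 4408, 7204 and 6847 in colon and at 44982, 29121, 10427 and 34689 in ileum (-2.38, SE 0.64, adjusted p = 0.0452). All ileal libraries lay above colon for both genes, replicate 3 least so. Lgmn, a lysosomal protease, fell by 2.10. C1qa and Csf1r, given above, were not called (adjusted p = 0.0501 and 0.0939), nor was Lyz2, macrophage lysozyme (-2.22, adjusted p = 0.0605). Against the ileal libraries of experiment 2, 12 macrophage genes were called lower and 2 higher, beside 12.4% and 12.2% of all genes tested.

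MHC class II, by which macrophages present antigen, had 1 of 7 genes called lower (median -1.87). H2-DMb1, which loads peptide, was at 179, 412 and 299 normalized reads in colon and at 1350, 1462, 325 and 1493 in ileum (-2.05, adjusted p = 0.0462), and ileum replicate 3 lay within the colonic range. Cd74, the invariant chain, was at 1767, 4180 and 2473 in colon and at 13283, 14215, 3839 and 8092 in ileum (adjusted p = 0.0876). Of 14 monocyte genes (median -1.30), 13 inflammatory genes (-1.75), 14 genes for the uptake of dying cells (-1.52) and 12 genes of the interleukin-10 axis (-0.32), 1 each was called lower and none higher. The share called lower over all genes tested was 2.66%. Il10ra, the receptor for interleukin-10, was at 35.8, 110 and 93.5 in colon and at 304, 285, 109 and 1106 in ileum (-2.60, adjusted p = 0.0453), and replicate 4 held far more than any other library. Without it the gene was not called (-1.57, adjusted p = 0.113). Cd40, a costimulatory receptor and the inflammatory gene called, fell by 2.70 (adjusted p = 0.0444), and Itgb5, an integrin chain that binds dying cells, by 1.72 (adjusted p = 0.0389). Cebpe, a transcription factor of granulocyte and monocyte precursors, was at or below 3 counts in colon and at least 1.94-fold below the ileal mean. In ileum it was low too, at 19.8, 28.5, 4.27 and 0. Neither retinoic acid genes (11 tested) nor, apart from Mmp7, the 12 metalloproteinases and inhibitors had a call.

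Of 20 interferon response genes, 3 were called lower and none higher (median -1.62). Gbp2, a guanylate-binding protein, was at 55.6, 56.3 and 38.6 in colon and at 449, 421, 79 and 92.2 in ileum (-2.46, adjusted p = 0.0334), with the experiment 1 pair just above colon. Gbp3 and Irf7 fell by 2.36 and 1.36. The 22 immediate early genes, which tissue digestion is known to induce, had no call, and Fos was at 8380, 6501 and 8760 in colon and at 8508, 5520, 8943 and 8165 in ileum. Their sum was 51285, 41104 and 51653 in colon and 40888, 29913, 58766 and 98032 in ileum. Digestion time and segment cannot be told apart. None of the 20 proliferation genes was called.

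Genes of chemotaxis and homing were lower in colon where they were called. Of 13 receptors and integrins tested, 6 were lower and 0 higher, with a median of -2.35. Ccr10, a receptor for the epithelial chemokines CCL27 and CCL28 carried by IgA plasma cells, was at 8.96, 14.8 and 8.13 normalized reads in colon and at 601, 235, 6.4 and 82.9 in ileum (-4.59, SE 1.00, adjusted p = 0.0303). The groups overlapped, since ileum replicate 3 held the least of all. Cxcr4, the receptor for CXCL12, was at 28.7, 56.3 and 81.3 in colon and at 168, 136, 96.1 and 1511 in ileum (-3.22, adjusted p = 0.0389). Ileum replicate 4 held far more than any other library, and against experiment 2 the gene was not called (-1.54, adjusted p = 0.141). Itga4, the integrin chain that binds MAdCAM-1, was at 48.4, 107 and 61 in colon and at 406, 307, 96.1 and 157 in ileum (-1.84, adjusted p = 0.0444). Itgae, an integrin chain of intraepithelial T cells and of some dendritic cells, fell by 3.53, and the remaining 2 of the 6 were Ccr9 and Cx3cr1.

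Of 22 chemokine ligands (median -1.73), 3 were called lower and 0 higher, namely Ccl5, Cxcl9 and Ccl25. Ccl25, the ligand of CCR9 made by small intestinal epithelium, was at 69.9, 145 and 128 normalized reads in colon and at 1142, 1013, 74.7 and 249 in ileum (-2.51, SE 0.62, adjusted p = 0.0389). It was thus high in the same ileal pair as its receptor and within the colonic range in replicate 3.

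The summed markers of T cells and of B cells and plasma cells, which the labelled gate leaves out, were highest in the ileal libraries of experiment 2. Single members did not all follow the sums. Of 11 T cell genes tested 6 were lower in colon and 0 higher (median -3.38), and the list summed to 117, 169 and 159 normalized reads in colon and to 2222, 1434, 162 and 562 in ileum. Gzma, a granzyme of cytotoxic cells, was at 3.58, 23.7 and 2.03 in colon and at 535, 300, 10.7 and 9.22 in ileum (-4.70, adjusted p = 0.0389). Cd4, also carried by a subset of gut macrophages, was at 23.3, 17.8 and 38.6 in colon and at 188, 200, 57.6 and 470 in ileum (-3.13, adjusted p = 0.0303). In Cd3d, Cd8a, Zap70 and Gzmb no colonic library exceeded 3 counts. Colon was thus at least 6.21-, 4.71-, 5.89- and 8.24-fold below the ileal mean, taking 3 counts in each colonic library. That mean rests mostly on ileum replicates 1 and 2. In ileum Cd3d was at 112, 49.9, 6.4 and 0, Cd8a at 95.7, 21.4, 10.7 and 0 and Gzmb at 172, 49.9, 2.13 and 0. For these genes the groups overlapped.

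Of 6 B cell and plasma cell genes 3 were lower (median -3.34). The list summed to 5707, 10186 and 7827 in colon and to 142800, 79140, 7284 and 4322 in ileum, most of it Jchain, the joining chain of secreted IgA, at 133272 and 73491 in ileum replicates 1 and 2. Jchain itself was not called (adjusted p = 0.111). Mzb1, a chaperone of antibody secretion, was at 32.3, 56.3 and 59 in colon and at 1998, 1041, 34.2 and 55.3 in ileum (-4.09, adjusted p = 0.0435). Of the defining B cell markers, Cd79a was at 8.96, 8.89 and 14.2 in colon and at 208, 114, 6.4 and 18.4 in ileum, not called (adjusted p = 0.0654). Ms4a1 was at 3.58, 2.96 and 2.03 in colon and at 13.2, 0, 0 and 0 in ileum, too low to be tested. Summed lymphoid transcripts stood out in the ileal libraries of experiment 2, the libraries in which Ccl5 and Ccr9, both also expressed by T cells, were high. Their part in the difference of Ccl5 and Ccr9 was not tested.

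**Figure D4:**
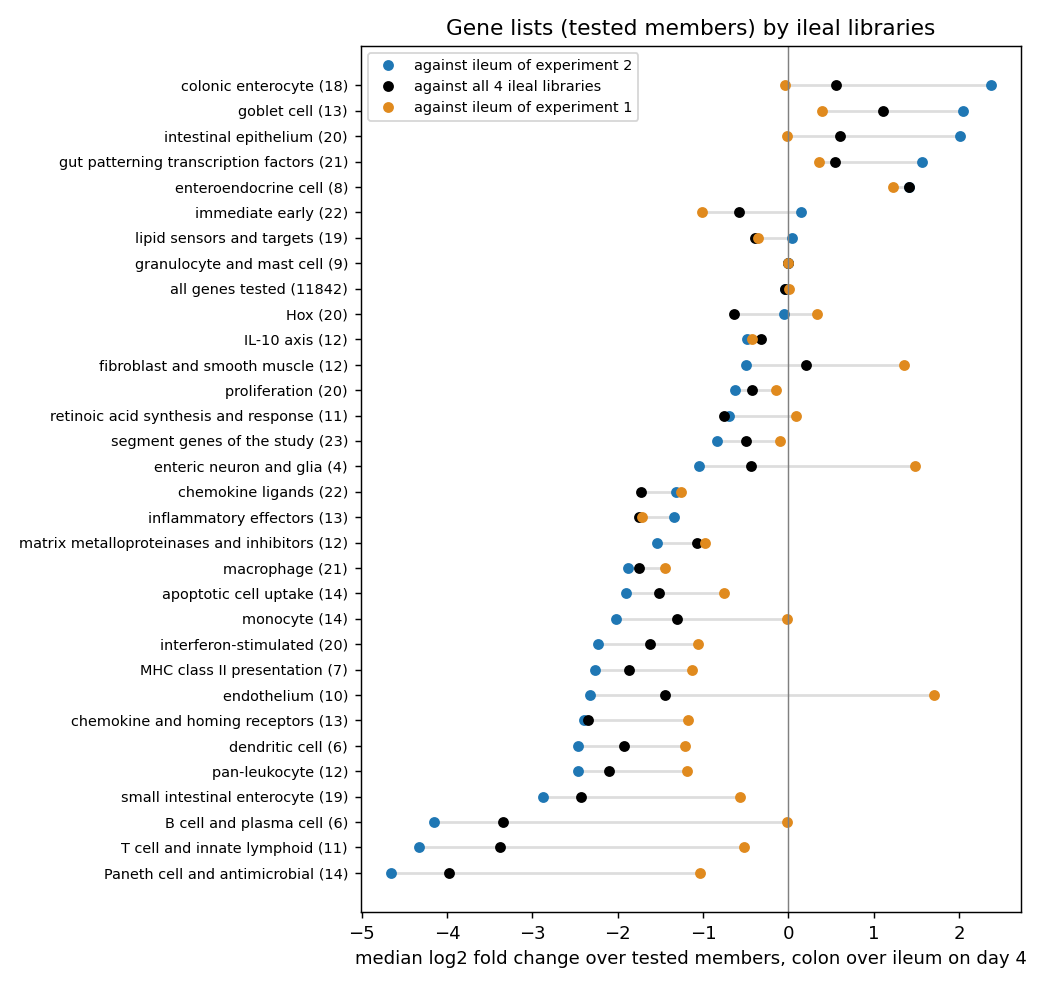
Median log2 difference of colon over ileum for each gene list on day 4 (number of tested members in brackets), against all ileal libraries in black, those of experiment 2 in blue and those of experiment 1 in orange. The Paneth cell and antimicrobial (-3.98), T cell (-3.38) and B cell and plasma cell (-3.34) lists have the lowest medians against all ileal libraries, and the median over all genes is -0.04.

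Small intestinal enterocyte genes were lower in colon where they were called. Of 19 small intestinal enterocyte genes 6 were called lower in colon and 0 higher (median -2.43). Slc51a, a bile acid transporter of ileal enterocytes, was at 16.1, 26.7 and 34.6 normalized reads in colon and at 125, 257, 124 and 230 in ileum (-2.88, SE 0.50, adjusted p = 0.0183), without overlap and alike in both ileal pairs. Anpep, a brush border peptidase, was at 25.1, 32.6 and 28.5 in colon and at 353, 342, 61.9 and 64.5 in ileum (-2.93, adjusted p = 0.0267). Mttp, which loads lipoproteins, and Apoa1, which is carried on them, fell by 2.92 and 4.53, and Maf, which is also a transcription factor of macrophages, by 1.75. Apoc3 was at or below 3 counts in all colonic libraries and at least 7.94-fold below the ileal mean. Of the defining markers, Fabp6 was at 228, 560 and 277 in colon and at 59.4, 8245, 194 and 332 in ileum, so that ileum replicate 1 lay below colon. Fabp2 ran from 1299 to 2280 in colon and from 3051 to 7111 in ileum. Neither was called (adjusted p = 0.182 and 0.0981).

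Of 14 Paneth cell and antimicrobial genes 6 were lower and 1 higher, the lowest median of the 31 lists (-3.98). Lyz1, Paneth cell lysozyme, was at 462, 845 and 744 in colon and at 5124, 9643, 775 and 3521 in ileum (-2.85, SE 0.70, adjusted p = 0.0389), with replicate 3 inside the colonic range. The graft held 20628 to 33129 normalized reads of Lyz1, more than any day 4 library. Reads of Lyz1 were thus not particular to Paneth cells. Itln1, a lectin, was at 91.4, 190 and 110 in colon and at 1856, 4700, 120 and 387 in ileum (-3.77, adjusted p = 0.0435). Mmp7, which activates defensins, was at or below 3 counts in colon and at least 30.3-fold below the ileal mean. In ileum it was at 198, 585, 2.13 and 36.9, with replicate 3 inside the colonic range. The 1 gene called higher was Nupr1, a stress response regulator at 2509, 2591 and 2160 in colon and at 442, 663, 1988 and 857 in ileum (1.20, adjusted p = 0.0473).

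Lists of epithelium in general and of colonic epithelium had few or no calls against all ileal libraries. None of 20 epithelial genes, none of 13 goblet cell genes and 1 of 18 colonic enterocyte genes (Best2) was called, with medians of 0.61, 1.11 and 0.56. Against the ileal libraries of experiment 2 the calls were 15, 10 and 14 higher and 0 lower, beside 12.2% higher and 12.4% lower over all genes tested. Krt8, a keratin of simple epithelia, was at 27268, 25493 and 30309 normalized reads in colon and at 4464, 6654, 23856 and 23990 in ileum (0.78, adjusted p = 0.3). Muc2, the gel-forming mucin of goblet cells, was at 16304, 8494 and 14409 in colon and at 1360, 2018, 8418 and 5401 in ileum (1.47, adjusted p = 0.0831). Car1, the carbonic anhydrase of colonic enterocytes, was at 7553, 8639 and 5411 in colon and at 680, 1455, 17929 and 15419 in ileum (-0.42, adjusted p = 0.811). For Car1 the experiment 1 ileal pair exceeded every colonic library. Of 19 lipid genes 1 was higher and 1 lower, beside 0.524% and 2.66% of all genes tested. Scd2, a fatty acid desaturase, was at 5569, 2529 and 3016 in colon and at 697, 1034, 2150 and 719 in ileum (1.58, adjusted p = 0.0389), and Fabp5, a fatty acid carrier, fell by 1.96 on the log2 scale.

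Hox genes, which pattern the gut along its length, and a list of other transcription factors of the gut were examined as a separate group. Of 20 Hox genes tested (median -0.64), 1 was called lower, and of the 21 other transcription factors (median 0.55) 1, Creb3l3, was lower (-2.68, adjusted p = 0.0453). The share called lower over all genes tested was 2.66%. Hoxb4, an anterior member, was at 16.1, 23.7 and 10.2 in colon and at 172, 193, 40.6 and 82.9 in ileum (-2.95, SE 0.54, adjusted p = 0.0191), without overlap. Hoxb13, a posterior member, was at 4503, 3970 and 4177 in colon and at 307, 485, 2978 and 912 in ileum (1.75, adjusted p = 0.134). All 3 colonic libraries exceeded each ileal library, and replicate 3 stood between the others and colon. Against experiment 2, 7 Hox genes were higher and 6 lower in colon, among them Hoxb13 (3.39), Hoxb9 (3.53) and Hoxc4 (-3.92). Of the other transcription factors 14 were higher and 2 lower, such as Cdx1 (2.17), a transcription factor of intestinal epithelium. The shares over all genes tested in that comparison were 12.2% higher and 12.4% lower.

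Endothelial, fibroblast, enteroendocrine and enteric neuron lists had no call on day 4. The endothelial list summed to 697, 685 and 1499 normalized reads in colon and to 6861, 4322, 352 and 581 in ileum. Against experiment 2, 8 of its 10 genes were lower in colon, beside 12.4% of all genes tested. Dendritic cell and granulocyte lists had 2 of 6 and 2 of 9 genes lower against all ileal libraries, beside 2.66% of all genes tested. Among them were Batf3, a transcription factor of cross-presenting dendritic cells (-2.41, adjusted p = 0.0482), and Csf3r, the receptor for G-CSF (-2.71, adjusted p = 0.0435).

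The study named 23 of the tested genes for segment differences on these same libraries, so their directions are not independent evidence. Of these, 1 was higher and 5 were lower in colon on day 4, and 9 and 10 against experiment 2. The shares over all genes tested were 0.524% and 2.66% on day 4, and 12.2% and 12.4% against experiment 2. Foxp1, a forkhead repressor that restrains monocyte maturation, was at 1887, 1743 and 1942 normalized reads in colon and at 713, 649, 1185 and 1124 in ileum (0.90, SE 0.25, adjusted p = 0.0482). Its groups did not overlap. The 5 lower were Ccl5, Ccr9, Elk3, Il10ra and Arid5a, a regulator of cytokine mRNA at 113, 151 and 112 in colon and 462, 449, 137 and 498 in ileum (-1.70, adjusted p = 0.0432). Aldh2 (1.24, adjusted p = 0.0538), Fmnl3 (-1.82, adjusted p = 0.059), Mmp9 (-2.85, adjusted p = 0.0617), Hdac7 (-1.84, adjusted p = 0.0683) and Nos2 (-1.76, adjusted p = 0.09) were not called. Gata5, a small intestinal transcription factor, was at or below 3 counts in colon and in both experiment 1 ileal libraries, and at 42.9 and 57.1 in ileum replicates 1 and 2. Klf4, Pparg, Foxa1, Sod1, Trim16 and Nr3c2 had log2 differences of 0.12 to 1.13 and Sox4, Id2 and Ano6 of -0.53 to -0.42, none called. The study describes Id2 as raised preferentially in colon, and here its direction was the opposite. Its edgeR log2 difference was -1.20 on day 8 (adjusted p = 0.00975) and -1.12 on day 12 (adjusted p = 0.00796). On day 4 its mean was 382 in colon and 478 in ileum, both below the graft mean of 1664.

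Against the ileal libraries of experiment 2, Sycn, a protein of secretory granules, had the largest rise (6.11, SE 0.75, adjusted p = 1.12e-05), at 17539, 13533 and 11619 normalized reads in colon and 191, 207, 7763 and 3825 in ileum. Mettl7b, an enzyme of the endoplasmic reticulum, was at 1217, 786 and 1822 in colon and at 42.9, 64.2, 1215 and 2488 in ileum, a log2 difference of 4.55 against experiment 2 and of 0.25 (adjusted p = 0.895) against all. Sycn of the experiment 1 pair thus lay between the others, and Mettl7b at or above colon. Tnni1 rose by 5.21, and Klk1b3, whose paralogues make its count uncertain, was at 396, 240 and 403 in colon and at or below 3 counts in both ileal libraries of that experiment. Prg2, a granule protein of eosinophils, was at 8.96, 5.93 and 2.03 in colon and at 779, 171, 6.4 and 9.22 in ileum (-6.45, adjusted p = 0.000117). Apoa4, a lipoprotein of enterocytes, and Defa3, an alpha-defensin with near-identical copies, fell by 6.13 and 6.00.

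The ileal pairs were then compared with each other, which is a description since the pair was singled out by its values. Between them 1779 genes (15%) differed, 1091 higher (9.21%) and 688 lower (5.81%) in experiment 1, at log2 differences of -4.34 for Ccl5, -4.12 for Ccr9, -2.07 for Elk3 and 3.77 for Foxd2. The mean of the experiment 1 pair lay between colon and the experiment 2 pair in 54 of the 62 genes called higher and in 290 of the 315 called lower in colon. The transfer experiment and the epithelial sum moved together with this pair, and their parts were not tested.

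Each library was set against the later days. In a fit without the day 4 libraries, 1019 of 11701 genes were at least 2-fold higher in colon on days 8 and 12 and 1500 at least 2-fold higher in ileum. A segment score, the mean log2(normalized reads + 50) of the colonic minus that of the ileal genes, was 2.68, 2.23 and 2.29 in the day 4 colonic libraries, -0.58 and -0.28 in ileum replicates 1 and 2, and 2.34 and 1.47 in ileum replicates 3 and 4. On the later days it ran from 1.94 to 2.62 in colon and from -1.17 to -0.31 in ileum, and in the graft from -1.18 to -1.10. Ileum replicate 3 thus lay among colonic libraries, replicate 4 between the segments, and replicates 1 and 2 among ileal ones or next to them. Of the segment genes, 93.3% and 88.7% were nearer to the later ileal than the later colonic mean in ileum replicates 1 and 2, 3.3% and 32.9% in replicates 3 and 4, and 0.4% to 4.8% in colon.

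**Figure D5:**
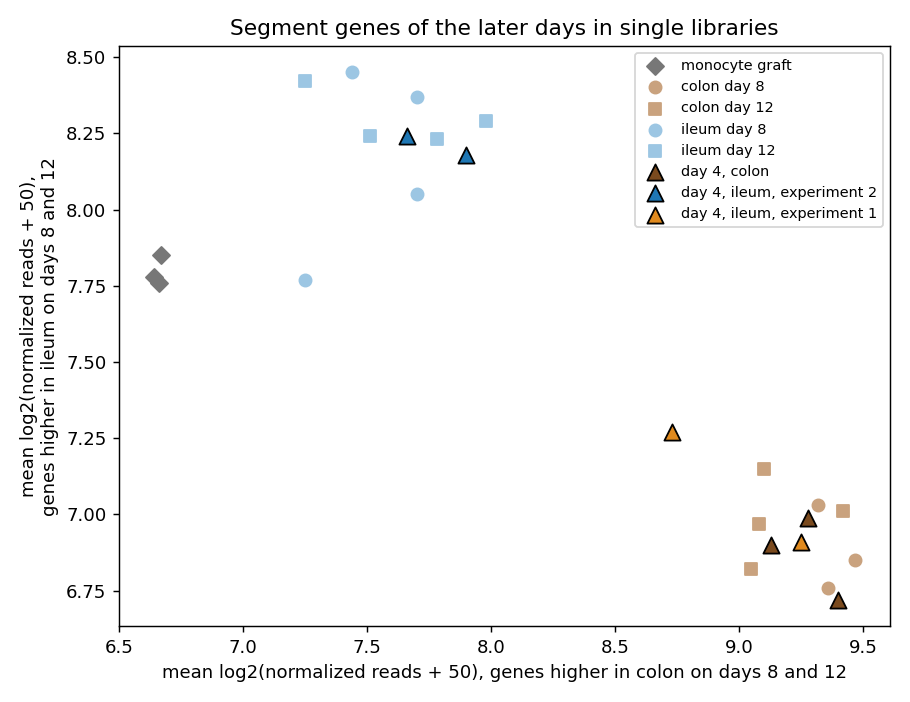
Mean log2(normalized reads + 50) per library of the genes higher in colon (horizontal axis) and of the genes higher in ileum (vertical axis) on days 8 and 12, with day 4 libraries as triangles. Ileum day 4 replicate 3 lies among the colonic libraries at 9.25 and 6.91 and replicate 4 near them at 8.73 and 7.27, while replicates 1 and 2 lie at 7.66 and 8.24 and at 7.9 and 8.18.

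Of the difference between segments on day 4 against that on days 8 and 12 (an interaction term), no gene was called by edgeR (0%), with 1296 genes at an unadjusted p under 0.05 and 135 called by DESeq2. For the markers the interaction was 0.47 (adjusted p = 0.938) for Ccl5, 1.34 (0.747) for Ccr9, 0.48 (0.786) for Elk3 and -3.05 (0.108) for Foxd2. On day 8, 35% of genes (4144) were called between the segments, 16.7% higher and 18.3% lower in colon, and on day 12, 32.5% (3846), 15.3% higher and 17.2% lower, among them the 4 markers, with log2 differences of -4.58 and -4.16 for Ccl5, -4.71 and -5.38 for Ccr9, -2.63 and -2.09 for Elk3 and 3.64 and 3.70 for Foxd2.

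A scaling to the summed reads of the 12 pan-leukocyte genes, chosen after the data were seen, moved the median of all genes to 1.91, so that values under it are read relative to that shift. Under it 9156 genes were called, 9133 higher and 23 lower in colon. The median of the macrophage list became 0.21, that of the T cell list -1.13, of the B cell and plasma cell list -0.99 and of the Paneth cell and antimicrobial list -1.71. All of these lay below the median of all genes, and that of the epithelial list, 2.23, lay above it. The pan-leukocyte median of 0.05 follows from scaling to these same genes and is no result. Ccl5 was at -1.62 (adjusted p = 0.132) and Ccr9 at -1.46 (adjusted p = 0.162), Elk3 changed sign to 0.39 (adjusted p = 0.556), and Foxd2 was at 2.25 (adjusted p = 0.0157).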

How the data were processed

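Libraries of 3′ ends were made from poly(A) RNA with an adapted MARS-seq protocol. Per the labels and file headers, the authors aligned reads to mm9 with hisat (HISAT 0.1.6) and counted sense reads on exons with HOMER, whose version, like a collapse of molecular identifiers, is not given in the sources used here. They deposited these counts without normalization, 1 row per gene (24411 rows).

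Groups came from titles. Of 26 columns mapped, 25 entered the fit. The colon day 8 library of experiment 1 was left out, as in the study, and entered an alternative. Other tables were not used here. Genes with 50 or more normalized reads in 3 libraries or more were kept (11842), and 7 groups were fitted together with edgeR 4.0.16 in R 4.3.3 (TMM, glmQLFit, glmQLFTest). A call has a Benjamini-Hochberg adjusted p under 0.05 over all genes, and tests were two-sided. For comparisons with the ileal pairs, the ileal day 4 group was split by experiment. Scripts were tested on simulated counts. Alternatives used DESeq2 1.42.0, limma 3.58.1, other scalings, filters and left-out libraries. Figures were drawn with matplotlib 3.10.9.

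Genes named were the 4 markers, the 10 largest rises and falls of at least 200 normalized reads without overlap (5 against experiment 2), called and defining members of the 31 lists (506 genes, 1 not matched in the table) and the study's segment genes. Members and lists were chosen with earlier results of these data known. Reads on genes per day 4 library numbered 591817 to 3493426. No duplicate libraries were found (chi-square per degree of freedom 8.01 to 56.55). Colonic and ileal libraries of experiment 2 were not treated as pairs. Their deviations from the group means correlated at -0.16 to 0.06. This cannot show whether they share animals, since the ileal mean includes the differing pair of experiment 1.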

Additional observations from a re-analysis of the deposited data

Results flagged for a closer look

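In the ileal group of day 4, 1 library stood farther from the others than Dixon's critical value for 4 samples, which chance exceeds in about 1 of 20 groups. In the results listed here the library was replicate 3. Its gap to the nearest library was 0.892 of the range of the group for Tcf7l1, 0.849 for B3gnt7, 0.866 for Arid5a and 0.938 for the summed macrophage genes. For Tcf7l1 and B3gnt7 it was the highest ileal library and for Arid5a and the macrophage sum the lowest. Other genes had another library apart, such as Cxcr4, with replicate 4 at 1511 normalized reads and the other ileal libraries at 96.1 to 168. Many genes were looked at, so some groups pass the critical value by chance.

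The ileal pairs of experiments 1 and 2 differed. The experiment 1 pair had been singled out because its values resemble colon, so what follows describes that choice and is no independent test. In edgeR's fit 1779 genes were called between the pairs, and the log2 difference of experiment 1 over experiment 2 was -4.34 for Ccl5, -4.12 for Ccr9, -2.07 for Elk3 and 3.77 for Foxd2. The transfer experiment is the same as the pair, and the part of each was not tested.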

How the results depend on the processing

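Against all ileal libraries, 377 genes were called, 356 with DESeq2 size factors, 376 without the filter on low counts and 524 with a filter of 200 normalized reads. The count was 164 with library totals, 1265 with the experiment as replicate block, 1080 by DESeq2 (274 higher, 806 lower in colon), 9156 with scaling to pan-leukocyte reads, 7 with the colon day 8 library of experiment 1, and 0 with the day 4 libraries alone (1755 at an unadjusted p under 0.05) or by an equal-variance test per gene (1376). It was 2918 with the ileal libraries of experiment 2 alone, 0 with those of experiment 1 alone, and 0 to 2090 when 1 library was left out. Against experiment 2 the 2918 calls became 9443 with pan-leukocyte scaling, 2709 with the replicate block and 1124 (without ileum replicate 1) to 3072 with 1 library left out, 1879 without ileum replicate 2. Within experiment 2 the 2497 calls became 9700, 2488 and 866 to 2626, with 866 and 1607 without ileum replicates 1 and 2 and 1163 and 1466 without colon replicates 1 and 3. Between the ileal pairs the 1779 calls became 637 with the replicate block, 487 with pan-leukocyte scaling and 493 to 1726 with 1 library left out, 493 and 1100 without ileum replicates 1 and 2. The interaction with the later days had 0 calls, 135 by DESeq2 and 0 to 304 with 1 library left out, 304 and 167 without ileum replicates 1 and 2. Of the list genes 57 were called, 26 with library totals, 227 against experiment 2, 209 within it and 0 to 179 with 1 library left out. Where a fit left 1 library in an arm, that library was assumed to vary like the others. The segment score difference of 1.66 stayed between 1.22 and 2.42. Of 878 values of 53 genes, 600 kept their call, 231 lost and 35 gained it, and 12 changed sign. Under pan-leukocyte scaling, which moved the median of all genes to 1.91, values below that shift took a positive sign in Elk3 (0.39), Id2 (1.59), Arid5a (0.42), Ano6 (1.59), Hdac7 (0.50), Fmnl3 (0.47), Nos2 (0.65) and Sox4 (1.73). With 1 library left out, Pparg ran from -0.21 to 0.53, negative without ileum replicate 1 or 2 (-0.12), and Tlr1 from -0.07 to 0.33, negative without colon replicate 1 or ileum replicate 1 (-0.01). The causes were not tested. In the shallowest library, ileum replicate 4, the 3 counts taken as floor equal 27.65 normalized reads.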
